A study of Mus musculus with 4 samples.

Results

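Adult mouse testes express 2 sets of glycolytic enzymes, a set restricted largely to germ cells and the set found in most somatic cells, and the transcripts of 10 such genes are described here. The germ cell isoforms were Gapdhs, Pgk2, Ldhc and Pgam2, and their somatic paralogs were Gapdh, Pgk1, Ldha, Ldhb and Pgam1. Pgam2 is also known from skeletal muscle and is only counted here with the germ cell isoforms. Hk1 stands for the first step of the pathway. The genes were chosen by name, with earlier results of these data known. All 10 were among the 22552 symbols of the tables, and each symbol stood on 1 row. The study compared testes of wild-type mice (WT) with testes of mice without a working Fam46c gene (Fam46c KO). The FAM46C protein adds adenosines to the 3′ ends of mRNAs. All animals were adult males of a DBA/C57 F1 background, and each genotype had 2 RNA-seq libraries of total testis RNA. How the allele was made, and whether the libraries of a genotype came from separate animals, was not stated in the sources used here. All p-values therefore reflect the spread among these 4 libraries alone, and that spread may be technical.

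Glycolysis splits glucose into pyruvate, and lactate dehydrogenase then converts pyruvate to lactate and back. In developing germ cells several of its enzymes are replaced by germ cell isoforms, some of which, such as GAPDHS, are bound to the fibrous sheath of the sperm tail. There they make ATP for the flagellum, and mouse sperm without GAPDHS or LDHC swim poorly. Pgk1 lies on the X chromosome, which is silenced in meiosis, and Pgk2 is an autosomal copy of it without introns that is transcribed from meiosis on.

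The unit of the tables is FPKM, fragments scaled to transcript length and to the number of mapped fragments, so that levels of different genes can be set side by side. Total FPKM per library ranged from 489702 to 528756. Steps left by whole fragments among the low values put the depths of WT replicate 1, KO replicate 1 and KO replicate 2 at 0.900, 0.782 and 0.904 of WT replicate 2, which held roughly 21300000 to 23600000 fragments. Germ cells were present in all 4 libraries, with 8 of 8 spermatid markers above 1 FPKM on average and a summed marker level of 47617 to 68570 FPKM. Fam46c itself was at 236 and 134 FPKM in WT against 131 and 129.9 in KO, which limma put at -0.45 on the log2 scale (SE 0.21, adjusted p = 1). The transcript level therefore does not check the genotype labels.

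The germ cell isoforms were among the most abundant transcripts of the testis, and all 4 exceeded every somatic paralog of their own family in every library. Ldhc, which encodes the germ cell subunit of lactate dehydrogenase, measured 2514 and 2495 FPKM in the WT libraries against 2708 and 2619 in the KO libraries. By its mean level it ranked 6 of 22552 symbols. Both KO values lay above both WT values.

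Gapdhs, the germ cell glyceraldehyde-3-phosphate dehydrogenase of the fibrous sheath, was at 881 and 916 FPKM in WT against 934 and 829 in KO. Pgam2, a phosphoglycerate mutase known from skeletal muscle and sperm, was at 883 and 859 FPKM in WT against 979 and 786 in KO. Pgk2, the germ cell phosphoglycerate kinase, was at 605 and 598 FPKM in WT against 623 and 538 in KO. For these 3 genes the KO libraries lay on either side of the WT libraries, with KO replicate 1 highest and KO replicate 2 lowest. Their mean levels ranked 44, 46 and 80 of 22552. The skeletal muscle markers listed for comparison summed to between 2.11 and 4.43 FPKM in a library, with Tnnt3 listed at 0 in all 4 libraries and Ckm between 0.435 and 0.637. None of the 8 exceeded 1.82 FPKM, the level of Tnnc2 in KO replicate 1. Mylpf, the only muscle marker tested, was higher in both KO libraries, at 1.01 and 0.664 FPKM in WT against 1.80 and 1.47 in KO, with an unadjusted p of 0.0107 and an adjusted p of 1 by limma. The part of muscle RNA in the Pgam2 values was not tested.

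Among the somatic paralogs, Ldha was the only abundant one. Ldha, the main lactate dehydrogenase subunit of muscle and many other cells, was at 443 and 432 FPKM in WT against 469.7 and 432 in KO. Hk1, a hexokinase for which mouse germ cells make transcripts of their own, was at 439 and 439.7 FPKM in WT against 440.3 and 407 in KO. Gene-level values do not separate the germ cell transcripts of Hk1 from the others. The Hk1 values of 3 libraries lay within 2 FPKM of each other, and KO replicate 2 lay below them.

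Ldhb, the subunit typical of heart, was at 44.4 and 35.4 FPKM in WT against 40.6 and 36.0 in KO. Pgam1, the phosphoglycerate mutase of most tissues, was at 19.4 and 15.4 FPKM in WT against 19.4 and 16.6 in KO. Gapdh, a gene in wide use as a reference transcript, was listed at only 7.42 and 6.32 FPKM in WT against 8.69 and 5.57 in KO. In these 3 genes the ranges of the genotypes overlapped, and replicate 2 was the lower library within both genotypes. Pgk1, the X-linked phosphoglycerate kinase, was lowest of the 10 at 2.40 and 2.11 FPKM in WT against 2.73 and 2.83 in KO, and its KO values both lay above its WT values. At 17000000 fragments, the lower estimate for the shallowest library, 2.11 FPKM corresponds to 35.8 fragments per kilobase. For a kilobase of transcript that is a counting error of 16.7%. The 2.11 FPKM belong to WT replicate 2, the deepest library, where the error would be smaller. The 16.7% covers counting only. The same reckoning gives 10.3% for Gapdh at 5.57 FPKM and 0.486% for Ldhc at 2495 FPKM, values that also come from deeper libraries.

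**Figure D1:**
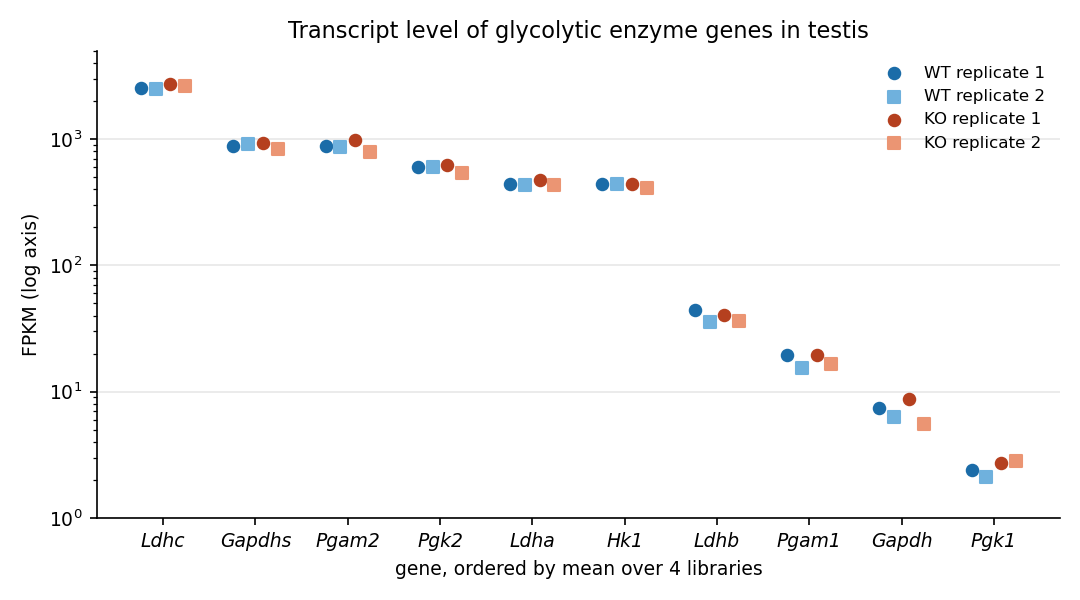
FPKM (log axis) of the 10 genes in each of the 4 libraries, with genes ordered by their mean; circles are replicate 1 and squares replicate 2, blue WT and red KO. The 6 most abundant genes lie between 407 and 2708 FPKM and the other 4 between 2.11 and 44.4 FPKM, while the 4 libraries of any gene lie close together on this scale.

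In descending order of mean level the genes ran Ldhc, Gapdhs, Pgam2, Pgk2, Ldha, Hk1, Ldhb, Pgam1, Gapdh and Pgk1. The ranges over the 4 libraries overlapped between Gapdhs and Pgam2 and between Ldha and Hk1, so the order within these neighbours is not set by the data. The other neighbours did not overlap. Together the 10 genes made up 1.17%, 1.17%, 1.18% and 1.16% of the total FPKM of WT replicates 1 and 2 and KO replicates 1 and 2, a share that hardly moved. Variation among libraries was smallest for Hk1, with a coefficient of variation of 3.73%, and largest for Gapdh with 19.4%. KO replicate 1 held the highest value of 8 of the 10 genes, and all 10 stood above their own 4-library mean on the log2 scale there. KO replicate 2 and WT replicate 2 each held the lowest value of 5 genes. The median log2 deviation of the 10 genes from their own means was 0.08 in KO replicate 1 and -0.09 in KO replicate 2, against 0.01 and -0.01 over all 12258 tested genes. Total FPKM was likewise highest in KO replicate 1, at 528756, and lowest in KO replicate 2, at 489702. How many other genes of like level showed this pattern was not counted.

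The genes most similar in level over the 4 libraries were found by the root mean square difference of log2(FPKM + 1). For Pgk2 they were Taf9, Lrrc46 and Akap4, at 0.08, 0.10 and 0.10. For Gapdhs they were Mea1, Serf1 and Spata24, at 0.06, 0.07 and 0.07. For Ldhc they were 1700027A15Rik, Ubb and Fabp9, at 0.13, 0.14 and 0.17. For Hk1 they were Ggnbp1, Ldhal6b and Irgc1, at 0.05, 0.06 and 0.06. Akap4 encodes the main structural protein of the fibrous sheath, and Ldhal6b is a lactate dehydrogenase A-like gene. With 4 libraries this measure reflects the level rather than the pattern.

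How far fragments of a germ cell isoform and its paralog can be told apart depends on their sequences. In coding sequences of GENCODE M21 (GRCm38), taking the longest complete one of each gene, Pgk2 and Pgk1 were identical at 79.3% of 1254 aligned bases, Pgam2 and Pgam1 at 74.8% of 762, Ldhc and Ldha at 73.7% of 998 and Gapdhs and Gapdh at 71.7% of 1049. Ldhc and Ldhb were identical at 65.4% of 992 bases. The longest run of identical bases is shown for the mutases, the pair with the longest one, because a fragment lying within such a run would match both genes. Capitals mark the shared run, with 12 bases of each gene on either side in lower case. Positions are counted from the start codon, bases 608 to 635 in both genes.
Pgam2: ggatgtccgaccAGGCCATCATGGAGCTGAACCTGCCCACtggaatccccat
Pgam1: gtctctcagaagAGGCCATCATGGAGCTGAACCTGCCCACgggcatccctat
The shared runs were 28 bases in the mutases and 22 bases in the kinases, and 20, 20 and 19 bases between Gapdhs and Gapdh, Ldhc and Ldha, and Ldhc and Ldhb. Pgk2 had 1 exon against 11 in Pgk1, and lies on chromosome 17 rather than X. Ldhc and Ldha both lie on chromosome 7 and have 8 exons each. Gapdhs lies on chromosome 7 and Gapdh on 6, Pgam2 on 11 and Pgam1 on 19, Ldhb on 6 and Hk1 on 10.

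A different limit applied most of all to Gapdh. Near copies were counted as genes without a coding transcript that matched at least 80% of the coding sequence at 90% identity or more. Gapdh had 132 such copies in GENCODE M21, of which 129 were annotated as pseudogenes, whereas Gapdhs, Pgk2, Ldhc, Pgam2 and Hk1 had 0. Ldha had 8, Pgam1 3, Pgk1 2 and Ldhb 1, and of these 14 only 1 copy of Ldha had a row in the tables and was listed at 0. Both Pgk1 copies, Gm5537 and Pgk1-rs7, and the Pgam1 copy Pgam1-ps2 were identical at 100% and had no row. How fragments matching copies without rows were treated was not tested, so the Pgk1 and Pgam1 levels are uncertain. Of the Gapdh copies 7 had rows. Gm6981, identical at 94.2%, was at 62.7 and 63.4 FPKM in WT against 66.6 and 54.1 in KO. Gm12070, identical at 99.9%, was at 32.7 and 24.9 FPKM in WT against 28.6 and 24.3 in KO. Both pseudogenes were thus listed several times higher than Gapdh itself. Gapdh and its 7 copies together came to 104.5 and 96.2 FPKM in WT against 105.4 and 85.0 in KO. How the authors' tools shared fragments between Gapdh and these copies was not tested, so the Gapdh level is uncertain.

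Within a library, the ratio of a germ cell isoform to its paralog does not depend on a scale factor of the library. Pgk2 exceeded Pgk1 as listed 252-fold and 284-fold in the WT libraries against 228-fold and 189.9-fold in the KO libraries. Gapdhs exceeded Gapdh as listed 119-fold and 145-fold in WT against 107-fold and 149-fold in KO. With the 7 near copies added to Gapdh, a choice made after the values were seen, this ratio was 8.43 and 9.53 in WT against 8.86 and 9.75 in KO. The size of the Gapdhs excess therefore depended on whether these 7 copies were counted, while Gapdhs stayed higher either way. Copies without rows could not be added, so the excess was not tested against them.

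Pgam2 exceeded Pgam1 as listed 45.4-fold and 55.8-fold in WT against 50.4-fold and 47.5-fold in KO. Ldhc exceeded Ldhb 56.7-fold and 70.4-fold in WT against 66.7-fold and 72.7-fold in KO. Ldhc exceeded Ldha by the least, 5.67-fold and 5.78-fold in WT against 5.77-fold and 6.06-fold in KO. The Ldhc to Ldha ratio was also the steadiest, with an SD of 0.04 on the log2 scale over 4 libraries, against 0.13 to 0.25 for the other 4 ratios. Each of the 5 ratios was above 1 in 4 of 4 libraries, and an exact two-sided sign-flip permutation test gave p = 0.125 for each, the smallest value that 4 libraries allow. After Benjamini-Hochberg adjustment over the 5 ratios it remained 0.125.

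The germ cell gene accordingly made up nearly the whole transcript pool, as listed, in 3 families. Pgk2 was 99.5% to 99.6% of the summed FPKM of Pgk2 and Pgk1. Gapdhs was 99.1% to 99.3% of Gapdhs and Gapdh, and 89.4% to 90.7% with the Gapdh copies included. Pgam2 was 97.8% to 98.2% of both mutases. Ldhc was 83.8% to 84.8% of Ldhc, Ldha and Ldhb, a lower share because of Ldha. With Ldhal6b counted as well, which was at 425 to 465 FPKM, Ldhc made up 73.5% of the summed mean level. The ranges of the shares run over all 4 libraries. The share of Ldhc lay below those of the other 3 germ cell genes in every library, while those of Pgk2 and Gapdhs lay close together. In whole testis, fewer cells of a type and less RNA per cell cannot be told apart.

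**Figure D2:**
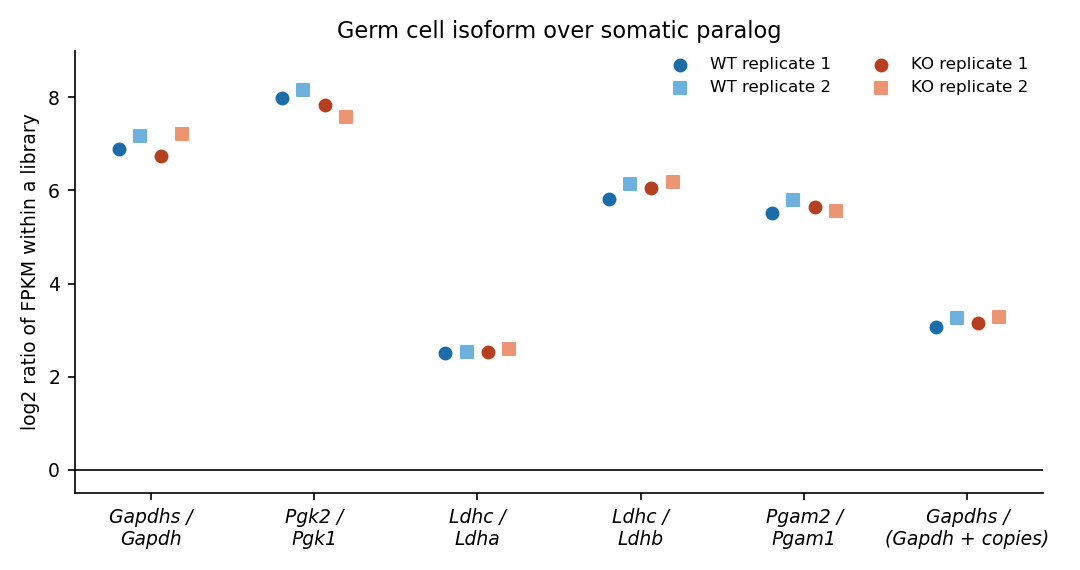
Log2 ratio of the FPKM of each germ cell isoform to that of its somatic paralog within each library (circles replicate 1, squares replicate 2, blue WT, red KO), with Gapdh plus its near copies as the last set. All points lie above 0, and only for Pgk2 to Pgk1 do both KO points lie below both WT points.

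Promoter windows of the kinase and dehydrogenase pairs are shown because these pairs span the largest and the smallest ratio. Each holds 250 bases before and 50 after a transcription start in RefSeq (GRCm38.p6), the first start listed for the gene, read 5′ to 3′ on the gene's strand. The build named for the tables, per the submitters' processing notes, is mm9, and the coordinates are not those of that build. Capitals mark matches, on either strand, to any of 4 short motifs. The first was TGACG, the core of the cAMP response element. The second was the GC box, spelled GGGCGG. The other two were the letters CCAAT of the box of that name and the TATA box, searched as TATAAA.
Pgk2, chr17:40208560-40208859, minus strand: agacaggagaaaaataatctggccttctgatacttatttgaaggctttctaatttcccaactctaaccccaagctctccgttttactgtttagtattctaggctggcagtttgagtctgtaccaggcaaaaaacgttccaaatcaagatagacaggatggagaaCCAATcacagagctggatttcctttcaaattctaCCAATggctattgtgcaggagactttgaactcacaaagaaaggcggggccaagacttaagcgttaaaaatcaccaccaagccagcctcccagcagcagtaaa
Pgk1, chrX:106186850-106187149, plus strand: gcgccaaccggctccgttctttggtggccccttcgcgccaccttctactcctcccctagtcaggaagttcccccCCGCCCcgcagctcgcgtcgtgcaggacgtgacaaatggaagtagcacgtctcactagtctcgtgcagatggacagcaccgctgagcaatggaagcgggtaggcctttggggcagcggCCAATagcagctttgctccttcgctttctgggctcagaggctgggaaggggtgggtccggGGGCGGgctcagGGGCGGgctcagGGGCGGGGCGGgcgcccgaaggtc
Ldhc, chr7:46861013-46861312, plus strand: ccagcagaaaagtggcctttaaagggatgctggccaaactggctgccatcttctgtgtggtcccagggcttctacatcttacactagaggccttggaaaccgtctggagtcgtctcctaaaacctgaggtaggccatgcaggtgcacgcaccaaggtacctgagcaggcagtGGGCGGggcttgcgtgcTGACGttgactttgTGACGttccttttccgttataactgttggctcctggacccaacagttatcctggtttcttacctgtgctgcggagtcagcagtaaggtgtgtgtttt
Ldha, chr7:46845554-46845853, plus strand: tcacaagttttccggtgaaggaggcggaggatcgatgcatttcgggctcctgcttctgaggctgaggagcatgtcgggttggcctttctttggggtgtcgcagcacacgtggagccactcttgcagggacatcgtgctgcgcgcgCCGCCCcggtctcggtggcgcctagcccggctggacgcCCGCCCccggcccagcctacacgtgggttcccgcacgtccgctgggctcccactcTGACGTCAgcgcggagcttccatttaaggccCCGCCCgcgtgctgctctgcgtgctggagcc
The Pgk2 window held 2 CCAAT boxes and no other match, and the Pgk1 window 5 GC boxes, a pair of which overlap, and 1 CCAAT box. The Ldhc window held 1 GC box and 2 TGACG matches. The Ldha window held 3 GC boxes and 2 TGACG matches that overlap on opposite strands as a palindrome. None of the 4 windows held TATAAA. Over all 32851 windows of the table, 20.8% held TGACG, 35.7% GGGCGG, 37.4% CCAAT and 13.6% TATAAA. CG dinucleotides, the sites of DNA methylation, numbered 4 in the Pgk2 window and 24 in that of Pgk1, and 9 in that of Ldhc and 30 in that of Ldha, with a median of 7 over all windows. The other pairs ran the same way in the first window listed, with 4 in Gapdhs and 12 in Gapdh, 1 in Pgam2 and 30 in Pgam1, and 17 in Ldhb. These letters are a description of the windows and say nothing of what binds there.

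Between genotypes, no change in any of the 10 genes passed the test. Limma, fitted to log2(FPKM + 1) of the 12258 genes with a mean of at least 1 FPKM, called 0 of the 10 at a Benjamini-Hochberg adjusted p under 0.05, where 0.114% of all tested genes were called. Without adjustment, 0 of 10 had a p under 0.05, against 2.02% of all tested genes. All 10 genes passed the filter. The median log2 fold change of the 10, KO minus WT, was 0.02, against -0.01 over all tested genes, with 6 positive and 4 negative values. After total scaling the values of Gapdh and Pgam2 turned negative, at -0.0055 and -0.0212.

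Among the germ cell isoforms, Ldhc had a log2 fold change of 0.09 (SE 0.14), Gapdhs one of -0.03 (SE 0.13), Pgk2 one of -0.06 (SE 0.13) and Pgam2 one of 0.01 (SE 0.14), each with a limma adjusted p of 1. The 95% intervals from limma, which are not adjusted for the number of genes, bound the change to 0.865-fold to 1.31-fold for Ldhc and 0.801-fold to 1.20-fold for Gapdhs. They were 0.786-fold to 1.18-fold for Pgk2 and 0.81-fold to 1.25-fold for Pgam2. All folds are of FPKM + 1. A change of 1.5-fold in either direction lay outside all 4 intervals, while changes of 1.1-fold lay inside them.

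The somatic paralogs and Hk1 gave the same result with wider limits for the low genes. Ldha had a log2 fold change of 0.04 (SE 0.13), Hk1 one of -0.05 (SE 0.13), Ldhb one of -0.05 (SE 0.15), Pgam1 one of 0.05 (SE 0.16) and Gapdh one of 0.02 (SE 0.19), with a limma adjusted p of 1 each. The interval for Gapdh ran from 0.76-fold to 1.36-fold. Pgk1 had the largest value of the 10, 0.22 (SE 0.16, unadjusted p = 0.191, limma adjusted p = 1), with an interval of 0.916-fold to 1.48-fold. A value closer to 0 was found for 90.7% of tested genes. With 0.1 or 5 FPKM added in place of 1, the Pgk1 value was 0.29 (SE 0.21) or 0.10 (SE 0.07), so its size depended on the amount added. Pgk1 and Ldhc were the 2 of 10 genes whose genotypes did not overlap, both higher in KO. Over all tested genes 20.1% did not overlap in either direction and 9.47% in that direction, so 2 of 10 is near the background.

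**Figure D3:**
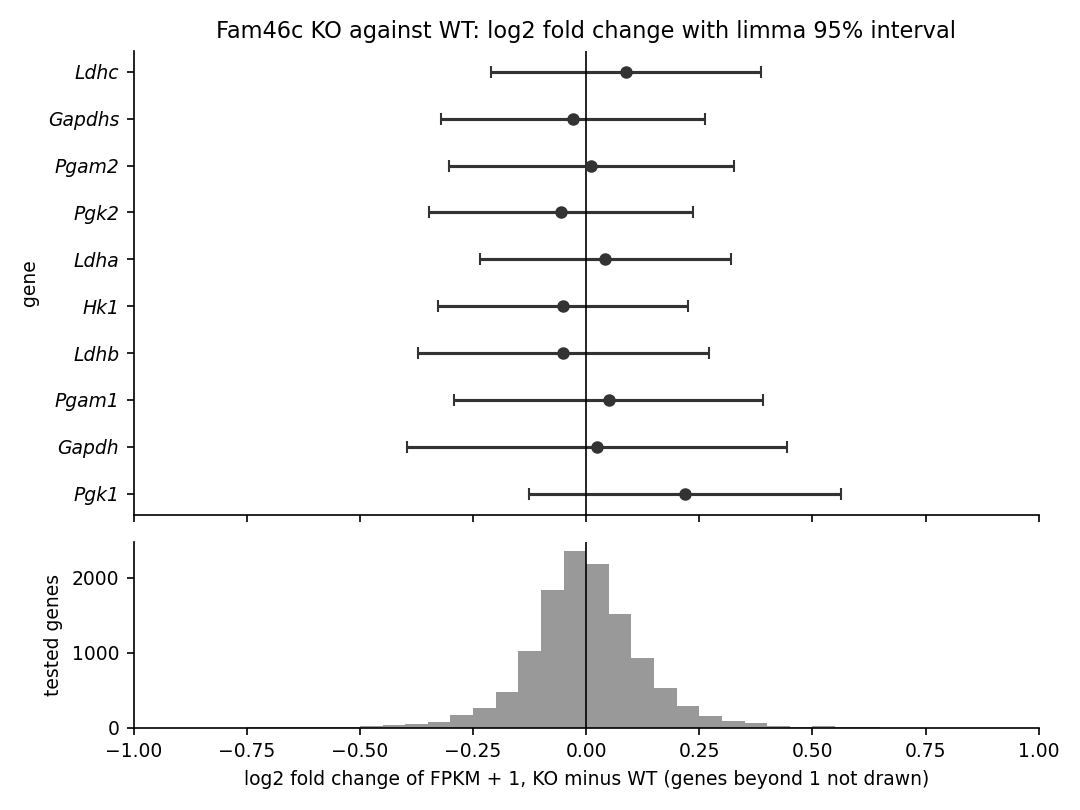
Upper panel, log2 fold change of FPKM + 1 (KO minus WT) of the 10 genes with the limma 95% interval; lower panel, histogram of the same value over tested genes between -1 and 1. All 10 intervals include 0, and the 10 values lie between -0.06 and 0.22.

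The balance of germ cell and somatic isoforms was compared between genotypes by the log2 ratio within each library. The Pgk2 to Pgk1 ratio was the only 1 of 5 whose genotypes did not overlap, at 8.06 ± 0.12 in WT against 7.70 ± 0.19 in KO (SD, n = 2 each), a difference of -0.36 (exact two-sided permutation test, p = 0.333, the smallest that 2 against 2 libraries allow). Its numerator and denominator differed in opposite directions, Pgk2 on account of KO replicate 2 and Pgk1 in both KO libraries. The libraries of 1 genotype differed from each other by 0.17 in WT against 0.26 in KO. The ratio thus rested on a denominator of 2.11 to 2.83 FPKM, with a counting error per kilobase of up to about that given above.

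The remaining ratios overlapped between genotypes. Gapdhs to Gapdh was 7.04 ± 0.20 in WT against 6.98 ± 0.33 in KO, a difference of -0.05 (exact permutation p = 1), and 0.05 with the near copies added. Ldhc to Ldha was 2.52 ± 0.02 and 2.56 ± 0.05, a difference of 0.05 (exact permutation p = 0.667). Ldhc to Ldhb was 5.98 ± 0.22 and 6.12 ± 0.09, a difference of 0.14 (exact permutation p = 0.667). Pgam2 to Pgam1 was 5.65 ± 0.21 and 5.61 ± 0.06, a difference of -0.04 (exact permutation p = 1). In each of these 4 the difference between genotypes was smaller than the difference between the libraries of at least 1 genotype. After Benjamini-Hochberg adjustment over the 5 ratios every p was 1. Shares of the family moved by -0.03 percentage points for Gapdhs, -0.11 for Pgk2, 0.50 for Ldhc and -0.05 for Pgam2 (exact permutation p from 0.333 to 1).

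Somatic cells of the testis hold the paralogs too, and their markers are given for that reason. The Leydig list had a summed level of 1281 and 1395 FPKM in WT against 637 and 309.9 in KO over 8 genes, of which Insl3 made up most. Of its 7 tested genes limma called 1 lower, Insl3. Insl3 and Hsd3b6 were lower in both KO libraries, and the other 5 overlapped between genotypes. For Star, Cyp11a1, Cyp17a1 and Hsd17b3, KO replicate 2 alone lay below both WT libraries. The 7 Sertoli markers present summed to 678 and 518 FPKM in WT against 567 and 556 in KO. The 8 pachytene spermatocyte markers summed to between 485 and 503 FPKM. The 8 spermatogonial markers summed to between 92.7 and 107 FPKM, those of peritubular myoid and endothelial cells to between 38.0 and 46.4 FPKM, and those of macrophages to between 355 and 438 FPKM, of which Aif1 alone made up 328 to 416. The 6 blood genes summed to 50.6 and 40.7 FPKM in WT against 12.6 and 8.73 in KO, and limma called 2 of the 4 tested lower. None of the 5 somatic paralogs was lower in both KO libraries than in both WT libraries. Over all tested genes 10.6% were, so none of 5 is near the background. The part of cell composition in the paralog levels was not tested.

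The rest of the pathway also showed no called difference. Of 31 other glycolysis genes present in the tables, limma tested 24 and called 0 higher and 0 lower at an adjusted p under 0.05, their median being -0.01 on the log2 scale. At an unadjusted p under 0.05 by limma there were 2 of 24, among them the aldolase Aldoc, against 2.02% of all tested genes. That count stayed 2 with 5 FPKM added in place of 1, with no variance trend, with robust variance and with the replicate number as a block. It was 1 with 0.1 FPKM added, after total scaling and after median scaling. It was 0 with no filter, 0 with a mean of at least 5 FPKM, which leaves Aldoc out, and 0 after quantile normalization. Aldoc was at 2.12 and 1.82 FPKM in WT against 1.61 and 0.946 in KO (-0.40, SE 0.18, limma adjusted p = 1). Aldoc was a low transcript. The next smallest p belonged to the phosphofructokinase Pfkm and the mitochondrial glycerol-3-phosphate dehydrogenase Gpd2, at -0.15 (SE 0.14) and 0.13 (SE 0.13).

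Of 17 genes of glucose and lactate transport and pyruvate entry into mitochondria 15 were tested, with 0 calls by limma, 0 at an unadjusted p under 0.05 and a median of 0.00. The monocarboxylate transporters Slc16a3 and Slc16a1 had values of -0.24 (SE 0.17) and -0.16 (SE 0.15), the pyruvate dehydrogenase subunit Pdhb 0.10 (SE 0.13) and the glucose transporter Slc2a8 -0.13 (SE 0.19), with a limma adjusted p of 1 each. Like Pgk2 and Pgk1, Pdha2 is an autosomal intronless copy of the X-linked Pdha1. Pdha2 was at 61.0 and 61.0 FPKM in WT against 57.5 and 69.5 in KO, and Pdha1 at 2.19 and 1.92 in WT against 2.13 and 1.67 in KO, a ratio of 27.1-fold to 41.6-fold. The glucose transporter Slc2a3 exceeded Slc2a1 94.4-fold to 141-fold. The monocarboxylate transporter Slc16a7 exceeded Slc16a1 32.9-fold to 45.1-fold. The aldolase copies Aldoart1 and Aldoart2 did not exceed Aldoa, at 0.243 to 0.291 and 0.848 to 0.985 of its level. Eno4 was likewise below Eno3, at 0.802 to 0.887 of its level, and Ldhal6b was at 0.982 to 1.06 of Ldha.

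Along the pathway, the steps of the 4 germ cell isoforms had the highest summed levels in every library. The 4 lactate dehydrogenase genes, Ldhal6b included, summed to 3420.3 to 3684 FPKM, GAPDH to 835 to 943, phosphoglycerate mutase to 803 to 999 and phosphoglycerate kinase to 540.4 to 626. Aldolase came to 512 to 557 FPKM and hexokinase to 417 to 448, of which Hk1 made up 98.1%. Triosephosphate isomerase, with Tpi1 alone, was at 205 to 245 FPKM. Enolase was at 189 to 216, glucose phosphate isomerase at 77.9 to 93.5, phosphofructokinase at 75.6 to 93.0 and pyruvate kinase at 78.5 to 85.3. Most of the enolase level, 73.9%, was listed under Gm5506, which RefSeq names Eno1b and which was added after its value was seen, while Eno1 was at 0.719 FPKM or lower in all 4 libraries. How fragments were shared between these enolase genes was not tested.

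**Figure D4:**
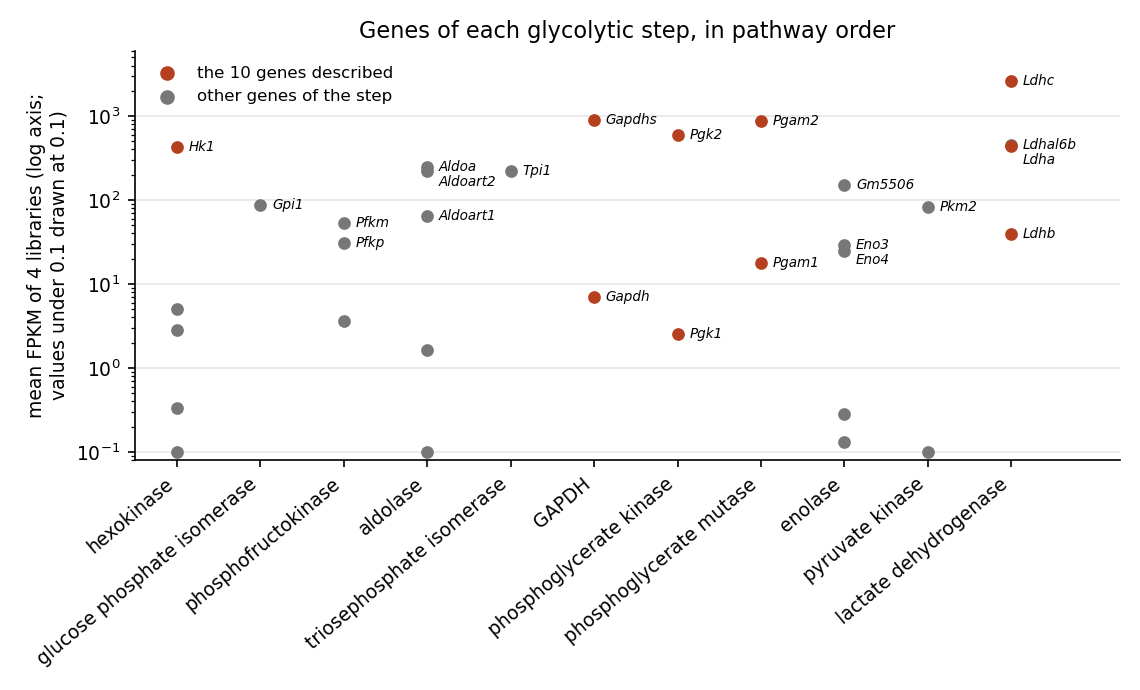
Mean FPKM over 4 libraries (log axis, values under 0.1 drawn at 0.1) of each gene of 11 steps from hexokinase to lactate dehydrogenase; red points are the 10 genes described and gray points other genes, with genes above 10 FPKM labelled. Gapdhs, Pgk2, Pgam2 and Ldhc stand above the genes of all other steps, while their paralogs Gapdh, Pgk1 and Pgam1 lie at 17.7 FPKM or lower.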

How the data were processed

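RNA-seq of total testis RNA gave 1 table for each of 2 WT and 2 KO libraries. The deposited values are FPKM per gene symbol, per the file headers. The tools Cufflinks 2.0.2, TopHat2 2.0.6 and Cuffdiff and the build mm9 appear, with no role given, per the submitters' processing notes. The annotation and the treatment of fragments with several matches were not stated in the sources used here. The 259 symbols on more than 1 row were summed. KO and WT were compared on log2(FPKM + 1) with limma 3.58.1 (R 4.3.3), over 12258 symbols averaging 1 FPKM or more, with an intensity trend, two-sided p-values and Benjamini-Hochberg adjustment over all of them. This fit had 2 residual and 9.48 prior degrees of freedom, and the script was tested on simulated data. Ratios used no pseudocount and exact permutation tests. Near copies were found with blastn 2.17.0, and coding sequences were aligned with Biopython 1.88. The 10 genes, the gene lists and the named-gene rule were chosen with earlier results of these data known. The rule named the 10 genes, the 4 genes of smallest p in each pathway list, and the 3 nearest in level to Gapdhs, Pgk2, Ldhc and Hk1. The paralog pairs of other families, the steps and the pseudogenes were chosen after the tables were seen. A gene that the rule named and a stretch of coding sequence are not reported here.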

Additional observations from a re-analysis of the deposited data

How the results depend on the processing

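Under 15 alternative settings of the limma fit, 0 of the 10 genes and 0 of the other glycolysis genes were called, and 0 of the 10 had an unadjusted p under 0.05, except that with a mean of at least 5 FPKM Pgk1 was not tested and these counts cover the other 9. The count over all genes, 14 in the report, was 1 with no filter, 9 with a mean of at least 5 FPKM, 7 after total scaling, 6 after median scaling, 6 after quantile normalization, 8 with robust variance, and 9 to 20 with 1 library left out. With the replicate number as a block it was 68. The labels do not say that a number pairs libraries, and the deviations of the libraries numbered 1 correlated at -0.03, so the block rests on the number alone. In a balanced design the block leaves every fold change as it was and alters only the error. After total scaling the log2 fold change of Gapdh was -0.0055 and that of Pgam2 -0.0212, and after quantile normalization that of Pgam2 was -0.0275, that of Ldhc 0 and the difference in the Ldhc to Ldha ratio -0.0018. With the near copies added to Gapdh, a setting chosen after seeing the data, the difference in the Gapdhs to Gapdh ratio was 0.0531, the share of Gapdhs differed by 0.33 points, and the mean log2 ratio was 3.19 in place of 7.01. Leaving out 1 library gave -0.12 to 0.0559 for Gapdhs, -0.26 to 0.30 for Gapdh, -0.16 to 0.0507 for Pgk2, -0.0175 to 0.10 for Ldha, -0.21 to 0.11 for Ldhb, -0.15 to 0.17 for Pgam2, -0.11 to 0.21 for Pgam1 and -0.11 to 0.0038 for Hk1. It kept Pgk1 at 0.15 to 0.28 and Ldhc at 0.06 to 0.11. The ratio differences ranged from -0.29 to 0.18 for Gapdhs to Gapdh, -0.49 to -0.23 for Pgk2 to Pgk1, 0.01 to 0.08 for Ldhc to Ldha, -0.0161 to 0.30 for Ldhc to Ldhb and -0.19 to 0.11 for Pgam2 to Pgam1. Shares moved by -0.16 to 0.0929 points for Gapdhs, -0.15 to -0.06 for Pgk2, 0.15 to 0.84 for Ldhc and -0.24 to 0.15 for Pgam2. The cause of these changes was not tested. None of these 5 paralog ratios fell below 1 under any setting tried. With 2 libraries per genotype, changes inside the intervals given cannot be told from none. Larger changes can also go uncalled after adjustment, as did that of Hsd3b6 at -1.84 on the log2 scale (limma adjusted p = 0.203). The low paralogs Pgk1 and Gapdh carry the largest counting error.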
